A study of Mus musculus with 12 samples.

Results

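T and natural killer (NK) cell genes were followed in 2 cell populations of the mouse liver. The genes were Cd3d, Cd3e, Cd3g, Lck, Nkg7, Klrk1, Gzma, Gzmb and Cd2, and every probe set that the platform annotation assigned to one of these symbols was taken. Of the 9 genes, 8 had a probe set, 1 each, so that 8 of 12393 genes, and 8 of the 22626 probe sets on the array, were members. Lck was not analysed here. The mice were male C57BL/6N animals of 12 weeks. They drank phenobarbital at 50 mg/kg per day for 14 days, or tap water as the vehicle, and hepatocytes and a fraction labelled mesenchymal cells were profiled from both. Phenobarbital is a sedative that, through the receptor CAR, induces drug-metabolising enzymes in hepatocytes. The 4 groups of vehicle hepatocytes, phenobarbital hepatocytes, vehicle mesenchymal cells and phenobarbital mesenchymal cells had 3 arrays each. The labels used here state neither how the cells were isolated nor how many animals an array stands for, so the p-values reflect only the spread among these samples, which may be technical. Values are log2 expression values, and arrays are named by their label number.

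T cells recognise peptides through a receptor whose signal is passed on by the CD3 chains, and NK cells read stress ligands and missing self through receptors such as NKG2D. Both kill by releasing granules that hold granzymes. Mouse liver holds many resident NK, NKT and T cells in its sinusoids, beside Kupffer cells, endothelial cells and stellate cells.

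Markers of the other cells put the members in context. In vehicle mice, each of 13 Kupffer cell and macrophage, 15 sinusoidal endothelial and 10 pan-leukocyte markers measured was called higher in the mesenchymal fraction than in hepatocytes, as were 8 of 12 stellate cell and fibroblast markers, of which 2 (Pdgfrb and Hand2) were called lower, and each of 13 hepatocyte markers was called lower. These counts are without a filter, where 32.8% of all genes were called higher and 45.5% lower. The label mesenchymal therefore covers a fraction in which macrophage and endothelial genes were high (summed up as list means of 13.5 to 13.9 and 12.3 to 12.8 in the 6 arrays), and in which hepatocyte markers were still measured at list means of 9.30 to 11.4. Cyp2b10, the P450 gene most used as a sign of CAR activation, differed by 5.52 between phenobarbital and vehicle hepatocytes (SE 0.30, adjusted p = 0.00123) and by 1.0 in mesenchymal cells (adjusted p = 0.998). The latter was 0.44 without phenobarbital array 1, which was at 9.39 against 7.82 and 7.57 and had the highest hepatocyte list mean. Arrays of one group correlated at r of at least 0.989 over all probe sets. The vehicle mesenchymal array 1 and vehicle hepatocyte array 1 stood apart in circadian clock genes, with list means of 7.30 and 7.78 against 8.53 to 8.88 in all other arrays. The list went both ways: Dbp was at 6.52 and 6.21 in these arrays and at 11.60 or more in the other 10, whereas Arntl was at 9.36 and 9.57 and at 7.31 or less in the others. The members' phenobarbital differences in mesenchymal cells are given with and without vehicle array 1.

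The members were measured at clearly higher levels in the mesenchymal fraction than in hepatocytes, with Cd3e as the exception. In vehicle mice 7 of 8 members were called higher, in a comparison in which 32.6% of all 22626 probe sets were called higher. In phenobarbital mice, which share no array with the vehicle mice, the same 7 were called higher, against 32.5% of all probe sets. For these 7 genes the mesenchymal arrays did not overlap with the hepatocyte arrays, as held in the same direction for 33.5% of all probe sets in vehicle mice and 33.9% in phenobarbital mice. The median difference of the 8 members was 3.01 in vehicle mice and 2.65 in phenobarbital mice, beside -0.16 and -0.18 for all probe sets. In bulk RNA such a difference cannot tell more cells of a type from more RNA per cell. The adjusted p given next for single members are from the filtered fits, which the 7 genes entered only through the mesenchymal arrays. By limma on all probe sets without a filter, they ran from 6.64e-08 (Klrk1) to 0.000625 (Cd2) in vehicle mice. In phenobarbital mice they ran from 7.53e-08 (Klrk1) to 0.00198 (Cd2).

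Cd3g encodes the gamma chain of CD3, which joins the T cell receptor at the surface. It was measured at 5.34, 4.75 and 5.28 in vehicle hepatocytes and at 9.42, 8.32 and 8.29 in vehicle mesenchymal cells. In phenobarbital mice the values were 5.28, 5.52 and 5.10 in hepatocytes and 8.38, 7.85 and 8.85 in mesenchymal cells. Each mesenchymal array lay above every hepatocyte array, and among the mesenchymal arrays vehicle array 1 was highest. The difference between the populations was 3.56 in vehicle mice (11.8-fold, SE 0.32, adjusted p = 7.78e-07) and 3.06 in phenobarbital mice (SE 0.32, adjusted p = 2.95e-06).

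Cd3d, the gene of the delta chain and a close neighbour of Cd3g, followed the same order. Its hepatocyte values were 6.01, 6.61 and 6.58 with vehicle and 6.49, 6.45 and 6.57 with phenobarbital. Its mesenchymal values were 9.29, 8.41 and 8.26 with vehicle and 8.44, 7.98 and 8.73 with phenobarbital. The populations did not overlap, and the difference was 2.25 in vehicle mice (4.77-fold, SE 0.27, adjusted p = 9.29e-06) and 1.88 in phenobarbital mice (SE 0.27, adjusted p = 4.35e-05).

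Cd3e, which encodes the epsilon chain, did not share this pattern. Its probe set gave 7.69, 7.79 and 7.78 in vehicle hepatocytes and 8.11, 7.73 and 7.81 in vehicle mesenchymal cells. With phenobarbital it gave 7.59, 7.40 and 7.68 in hepatocytes and 7.88, 7.58 and 7.68 in mesenchymal cells. The populations overlapped in both treatments. The difference was 0.13 in vehicle mice (95% interval -0.14 to 0.39, adjusted p = 0.341) and 0.16 in phenobarbital mice (-0.10 to 0.43, adjusted p = 0.228). Its sign turned to -0.089 and -0.068 when each array was centred on its median, and to -0.019 in vehicle mice without the vehicle samples numbered 1. The 3 chains assemble into one complex in T cells, yet the upper ends of the Cd3e intervals lay below the lower ends of those of Cd3d and Cd3g, and Cd3e was the 1 member above its array's 40th percentile in all 6 hepatocyte arrays. Whether its probe set reads another RNA was not tested.

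Cd2 encodes an adhesion receptor of T and NK cells that binds CD48 in the mouse. It was measured at 5.55, 5.83 and 5.98 in vehicle hepatocytes and at 7.24, 6.56 and 6.68 in vehicle mesenchymal cells. With phenobarbital it stood at 5.75, 5.72 and 6.10 in hepatocytes and at 6.90, 6.36 and 6.95 in mesenchymal cells. No mesenchymal array reached down to a hepatocyte array of either treatment, though 1 of 3 arrays in each mesenchymal group stayed below the 40th percentile. The difference was 1.04 in vehicle mice (2.06-fold, SE 0.21, adjusted p = 0.000767) and 0.88 in phenobarbital mice (SE 0.21, adjusted p = 0.00242).

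Klrk1 encodes NKG2D, an activating receptor of NK cells and some T cells that recognises stress-induced ligands. Its probe set gave 5.86, 5.22 and 5.95 in vehicle hepatocytes and 10.25, 9.97 and 9.34 in vehicle mesenchymal cells. With phenobarbital it gave 6.49, 5.75 and 5.52 in hepatocytes and 9.66, 10.37 and 10.09 in mesenchymal cells. Every mesenchymal array was far above every hepatocyte array, and in contrast to the other members the highest of the 6 mesenchymal values was that of phenobarbital array 2. The difference between the populations was 4.17 in vehicle mice (18.0-fold, SE 0.31, adjusted p = 1.36e-07) and 4.12 in phenobarbital mice (SE 0.31, adjusted p = 1.54e-07).

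Nkg7 encodes a granule membrane protein of NK cells and cytotoxic T cells. It was at 5.94, 5.83 and 5.78 in vehicle hepatocytes and at 9.43, 8.16 and 8.36 in vehicle mesenchymal cells. With phenobarbital it was at 5.98, 6.04 and 6.52 in hepatocytes and at 8.75, 7.75 and 8.75 in mesenchymal cells. The populations were separate in both treatments. They differed by 2.80 in vehicle mice (6.96-fold, SE 0.33, adjusted p = 9.60e-06) and by 2.24 in phenobarbital mice (SE 0.33, adjusted p = 6.36e-05).

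The granzymes are serine proteases that enter a target cell from the granule. Gzma, the gene of granzyme A, stood at 4.46, 4.97 and 4.72 in vehicle hepatocytes and at 8.90, 7.12 and 7.80 in vehicle mesenchymal cells. With phenobarbital it stood at 4.48, 4.96 and 4.68 in hepatocytes and at 8.23, 7.74 and 7.99 in mesenchymal cells. Vehicle mesenchymal cells held both the highest and the lowest of the 6 mesenchymal values, and none of them approached the hepatocytes. The difference was 3.22 in vehicle mice (9.35-fold, SE 0.35, adjusted p = 4.47e-06) and 3.28 in phenobarbital mice (SE 0.35, adjusted p = 3.82e-06).

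Gzmb, the gene of granzyme B, which activates caspases in the target cell, was measured at 5.20, 5.11 and 6.00 in vehicle hepatocytes and at 9.77, 8.42 and 8.19 in vehicle mesenchymal cells. In phenobarbital mice it was at 5.96, 5.33 and 5.45 in hepatocytes and at 8.49, 8.72 and 8.96 in mesenchymal cells. Again vehicle array 1 led, and the populations did not overlap. The difference was 3.36 in vehicle mice (10.3-fold, SE 0.38, adjusted p = 5.29e-06) and 3.14 in phenobarbital mice (SE 0.38, adjusted p = 9.36e-06).

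**Figure D1:**
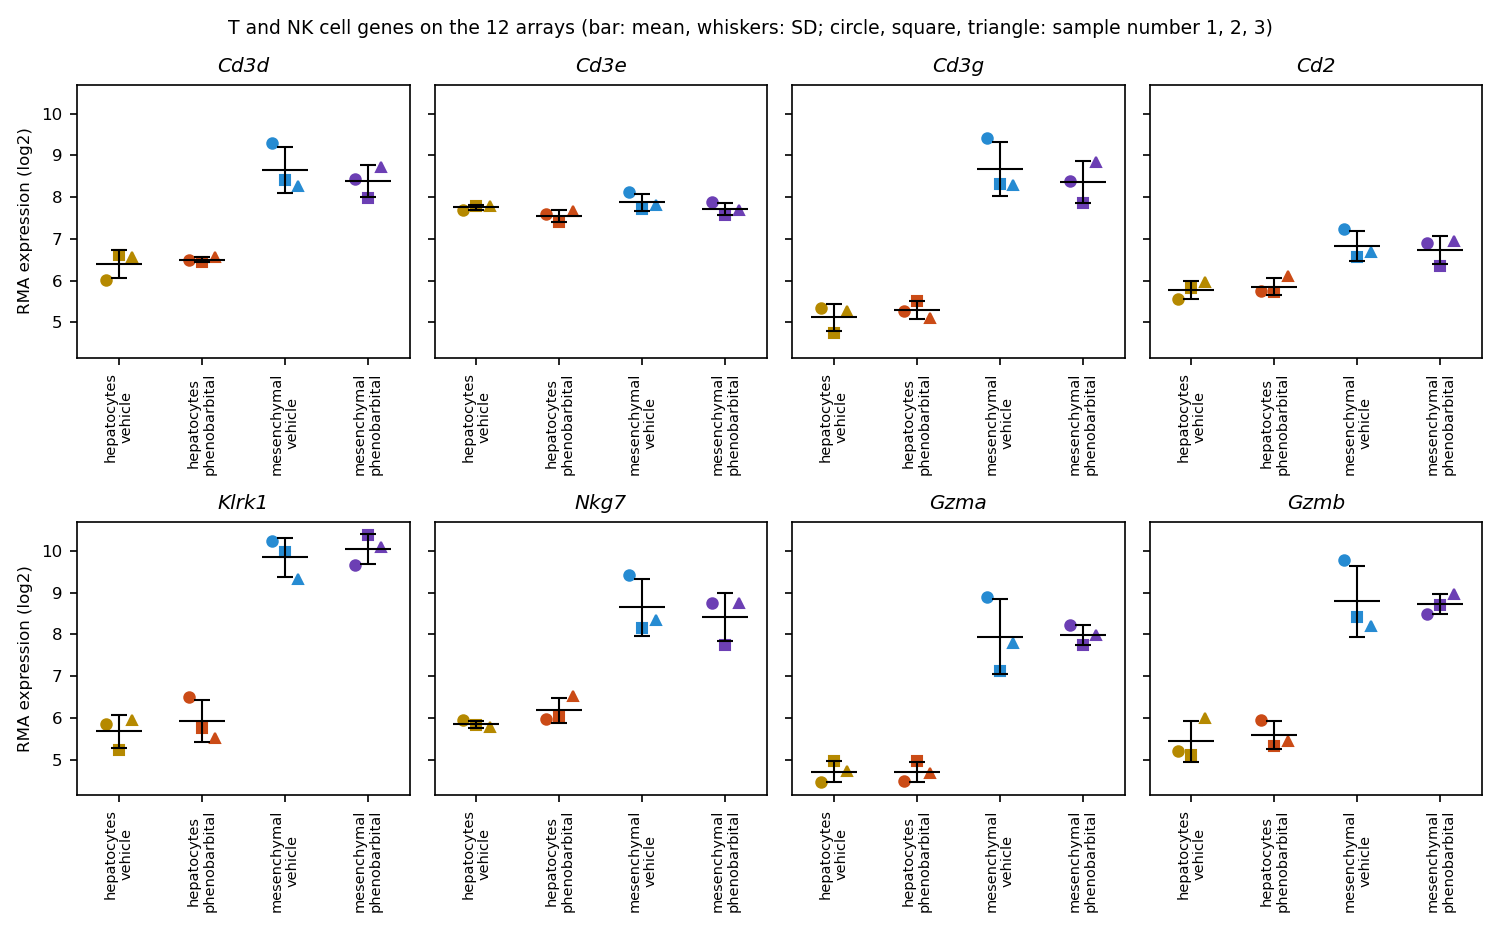
Log2 expression of the 8 members in each of the 12 arrays, 1 panel per gene, with the 4 groups along the horizontal axis, a point per array, a bar at the group mean and whiskers of 1 SD. In 7 panels both mesenchymal groups sit above both hepatocyte groups, and in the Cd3e panel the populations overlap within each treatment.

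In hepatocytes most of these values lay in the low range of the array. The 40th percentile was 6.54 to 6.60 in the hepatocyte arrays, and Cd3g, Nkg7, Klrk1, Gzma, Gzmb and Cd2 stayed below it in all 6, while Cd3d exceeded it in 2 of 3 vehicle arrays and 0 of 3 phenobarbital arrays. The folds given for these genes are ratios of the deposited values, and whether the hepatocyte values exceed background was not tested, so the differences of separate probe sets are not ranked. Members other than Cd3e passed the filter of the 12-array fits only through the mesenchymal arrays. In the order of the 4 groups, the 2 mesenchymal groups overlapped each other for all 8 members. For Cd3d, Cd3g, Nkg7, Gzmb and Cd2 the order of means was vehicle mesenchymal, phenobarbital mesenchymal, phenobarbital hepatocytes and vehicle hepatocytes. Klrk1 and Gzma had phenobarbital mesenchymal cells first, and Gzma had vehicle above phenobarbital hepatocytes. Neighbouring hepatocyte groups overlapped for these 7 genes except for Nkg7. For Cd3e the order was vehicle mesenchymal, vehicle hepatocytes, phenobarbital mesenchymal and phenobarbital hepatocytes, and each neighbouring pair overlapped.

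**Figure D2:**
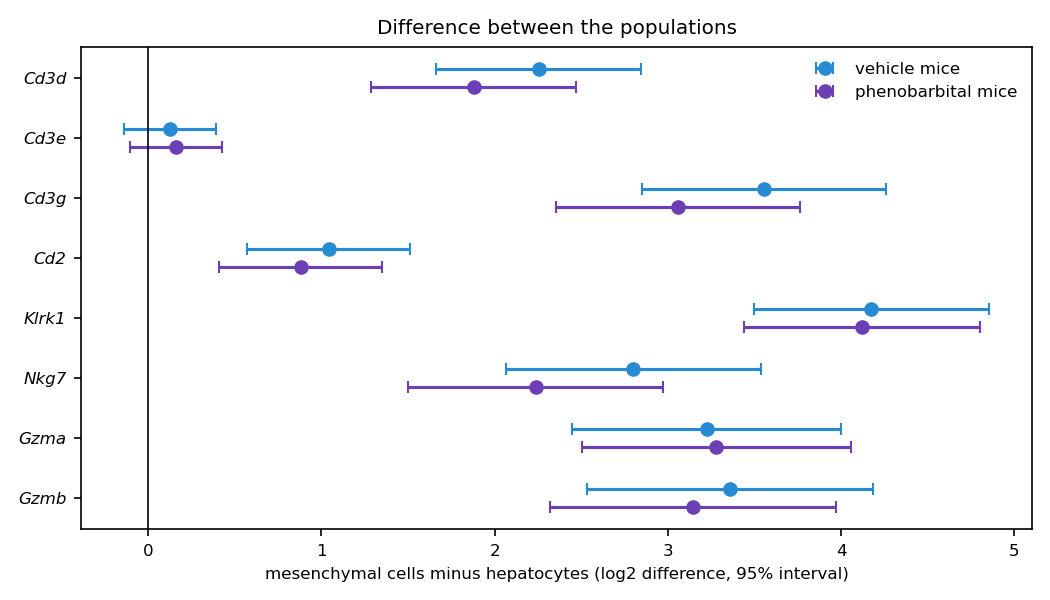
Difference between mesenchymal cells and hepatocytes for each member on the log2 scale, with 95% intervals, in vehicle mice (blue) and phenobarbital mice (purple). Klrk1 is at 4.17 and 4.12, Cd2 is at 1.04 and 0.88, and the Cd3e intervals include 0.

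Promoter windows of the members were read from RefSeq (GRCm38.p6), from 250 bases before to 50 after the start, and 7 of the 8 measured members were matched. The windows were searched on both strands for TGTGGT (a core that RUNX factors bind), AGGAAG (a core of ETS factors) and CACCTG (an E-box), and matches of different motifs did not overlap. TGTGGT, or ACCACA on the other strand, was in 4 of 7 windows (Nkg7, Klrk1, Gzma and Gzmb), compared with 16.8% of all 32851 windows. CACCTG was in 4 (Cd3d, Cd3e, Cd3g and Gzma), compared with 20.2%, and AGGAAG in 3 (Cd3d, Cd3e and Nkg7), compared with 35.4%. The motifs were chosen after the sequences were seen, so these counts cannot test for an excess. The starts of Cd3g and Cd3d lie 1355 bases apart on opposite strands of chromosome 9. The windows of 3 cytotoxic and NK genes that hold TGTGGT are shown with that of a CD3 chain, which does not, 5′ to 3′ on the strand of the gene, with these motifs in capitals. They lie at chr6:129623815-129624114 (Klrk1, minus strand), chr14:56262285-56262584 (Gzmb, minus), chr13:113100932-113101231 (Gzma, minus) and chr9:44980382-44980681 (Cd3g, minus).
Klrk1: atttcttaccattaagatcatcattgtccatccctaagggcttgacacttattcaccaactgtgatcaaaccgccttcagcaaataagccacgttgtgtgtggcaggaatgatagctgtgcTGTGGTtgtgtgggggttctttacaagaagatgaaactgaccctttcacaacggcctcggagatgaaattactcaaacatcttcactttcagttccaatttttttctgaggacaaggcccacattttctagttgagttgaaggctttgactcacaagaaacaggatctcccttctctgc
Gzmb: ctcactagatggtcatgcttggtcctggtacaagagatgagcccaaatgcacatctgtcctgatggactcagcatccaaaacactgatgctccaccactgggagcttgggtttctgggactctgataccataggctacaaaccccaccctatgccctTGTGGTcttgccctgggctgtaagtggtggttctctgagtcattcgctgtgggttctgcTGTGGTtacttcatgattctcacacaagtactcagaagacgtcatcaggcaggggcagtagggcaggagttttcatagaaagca
Gzma: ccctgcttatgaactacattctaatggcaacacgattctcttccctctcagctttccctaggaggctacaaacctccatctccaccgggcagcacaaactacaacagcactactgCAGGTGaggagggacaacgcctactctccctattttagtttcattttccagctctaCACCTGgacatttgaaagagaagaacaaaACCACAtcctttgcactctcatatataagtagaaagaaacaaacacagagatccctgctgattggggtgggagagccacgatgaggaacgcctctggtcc
Cd3g: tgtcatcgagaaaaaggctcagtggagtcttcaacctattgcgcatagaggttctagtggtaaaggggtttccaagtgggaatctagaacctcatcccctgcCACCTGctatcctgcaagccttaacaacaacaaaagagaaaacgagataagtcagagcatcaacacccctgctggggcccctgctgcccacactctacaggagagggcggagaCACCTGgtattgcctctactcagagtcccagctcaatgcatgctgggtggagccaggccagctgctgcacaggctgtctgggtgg
The capitals show 1 TGTGGT in Klrk1, 2 in Gzmb and its complement in Gzma, and 2 CACCTG in Cd3g. Gzma also held CACCTG on each strand. A match is a description of the letters, and no binding was measured here.

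Other genes of the T and NK cell programme were read from 5 lists. Genes that passed no filter are included in the counts, and the shares over all 12393 genes are the 32.8% higher and 45.5% lower given for the marker lists. Of 14 measured genes of the T cell receptor complex and its proximal signalling, 11 were called higher in mesenchymal cells than in hepatocytes and 2 lower. Named by width, Fyb, an adaptor also present in myeloid cells, differed by 5.95 (SE 0.37), the kinase gene Fyn by 5.52 (SE 0.22) and the adaptor gene Lcp2 by 5.09 (SE 0.17), with adjusted p of 2.76e-08, 8.27e-10 and 2.45e-10. Lower were Zap70, the kinase that binds phosphorylated CD3 chains, at -0.52 (adjusted p = 0.000323), and Sla2, a negative regulator of receptor signalling, at -0.39 (adjusted p = 0.0451). Zap70 was at 9.60, 9.43 and 9.68 in vehicle hepatocytes and at 9.11, 9.09 and 8.97 in vehicle mesenchymal cells. Whether the Zap70 probe set reads another RNA was not tested. The co-receptor genes that divide T cells into helper and cytotoxic lineages, chosen here after their values were seen, differed among themselves. Cd4 was at 7.12, 6.89 and 6.91 in vehicle mesenchymal cells and at 6.94, 6.99 and 7.21 in vehicle hepatocytes, which overlap, with a difference of -0.074 (SE 0.11, adjusted p = 0.543). Cd8b1 was at 7.60, 6.82 and 6.54 against 5.16, 5.34 and 5.34, without overlap, a difference of 1.71 (SE 0.21, adjusted p = 1.21e-05 without a filter). Cd8a was at 6.47, 6.14 and 6.18 against 6.10, 5.98 and 5.34, also without overlap, a difference of 0.46 (SE 0.18, adjusted p = 0.0336 by limma without a filter). Cd8a lay below the 40th percentile in every array, and Cd8b1 in every array except vehicle mesenchymal arrays 1 and 2. Whether such values exceed background was not tested, so the Cd8a call is not read as higher expression. In phenobarbital mice Cd8b1 was called again, at 1.33 (adjusted p = 9.80e-05 without a filter), and Cd8a was not, at 0.11 (adjusted p = 0.567 without a filter).

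Surface proteins and co-stimulatory receptors were called higher for 13 of 21 genes and lower for 1, Pdcd1. Pdcd1 lay below the 40th percentile in every array and was called only without a filter. Cd48, the ligand of Cd2 and a marker of most leukocytes, differed by 6.70 (SE 0.18, adjusted p = 6.01e-11 by limma). The chemokine receptor genes Cxcr6, which marks liver-resident lymphocytes, and Cxcr3 differed by 4.70 (SE 0.39, adjusted p = 3.57e-07) and 2.49 (SE 0.28, adjusted p = 5.80e-06). Of 18 NK cell receptors and adaptors, 12 were called higher and the other 6 were not called. The widest were Tyrobp at 8.01 (SE 0.16), Fcgr3 at 7.05 (SE 0.17) and Fcer1g at 6.00 (SE 0.15), with adjusted p of 7.09e-12, 2.56e-11 and 3.97e-11. These 3 signal in NK cells and are also well known in macrophages, whose markers were high in the same arrays, and the part of each cell type was not tested.

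Cytotoxic granule and effector genes were called higher for 10 of 19 and lower for 3. Srgn, the granule proteoglycan that many blood and endothelial cells make, differed by 7.31 (SE 0.21, adjusted p = 7.99e-11), and the chemokine genes Ccl5 and Ccl3 by 3.62 (SE 0.29, adjusted p = 2.74e-07) and 3.09 (SE 0.62, adjusted p = 0.00064). Prf1, the pore-forming partner of the granzymes, did not move with them. It was measured lower in mesenchymal cells, at 6.24, 6.17 and 6.22 against 6.87, 6.66 and 6.94 in vehicle hepatocytes. The difference was -0.62 (SE 0.10, adjusted p = 0.000114 by limma). Gzmm at -0.75 (adjusted p = 0.00219) and Rab27a were the other two. The 6 mesenchymal values of Prf1 lay below the 40th percentile of their arrays, as did those of Gzmm except in phenobarbital array 3. Rab27a lay below that percentile in every array and was called only without a filter. Whether these low values exceed background, and whether the Prf1 probe set reads another RNA, was not tested. Of 14 transcription factors of T and NK cells 7 were called higher and 5 lower. Ets1 differed by 6.87 (SE 0.17, adjusted p = 3.55e-11) and Satb1, a chromatin organiser of thymocytes, by 2.96 (SE 0.31, adjusted p = 2.92e-06), whereas Nfil3, needed for NK cell development, differed by -3.49 (SE 0.35, adjusted p = 2.22e-06). Nfil3 is also a gene of the circadian output, and its hepatocyte value was 9.71 in vehicle array 1 against 8.15 in both others. Lower as well were Zbtb16, Eomes, Runx3 and Tox. Of these, Eomes, Runx3 and Tox did not pass the filter and were called only in the fit without it. Eomes and Tox lay below the 40th percentile in every array. Whether such values exceed background was not tested, so these calls are not read as lower expression of these factors. In phenobarbital mice the genes called higher were 8 of 14, 11 of 21, 10 of 18, 8 of 19 and 5 of 14 in the 5 lists, and 2, 2, 1, 4 and 4 were called lower, with 32.9% of all genes called higher and 47.6% lower.

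Within the mesenchymal fraction, the 3 vehicle arrays were not alike. Vehicle array 1 was above both other vehicle arrays for 8 of 8 members, compared with 39.1% of all probe sets, and above all 5 other mesenchymal arrays for 7 of 8, compared with 24.8%. Its excess over the mean of the other two was 1.46 for Gzmb, 1.44 for Gzma, 1.18 for Nkg7 and 1.11 for Cd3g. It was smaller for Cd3d (0.95), Cd2 (0.62), Klrk1 (0.59) and Cd3e (0.35). The median excess of the members was 1.03, beside 0.0015 for all probe sets, so granzyme and CD3 genes were raised together in this array. Phenobarbital array 2 was the lowest of the 6 for 5 of 8 members, compared with 16.9% of genes tested, and was the highest for Klrk1.

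Many, but not all, of the other cell marker lists moved in vehicle array 1 at the same time. Compared with the mean of the other vehicle mesenchymal arrays, list means were 0.60 higher for neutrophil genes (highest in 10 of 10 genes), 0.38 higher for pan-leukocyte genes (8 of 10), 0.31 higher for B cell genes (9 of 11) and 0.12 higher for Kupffer cell genes (10 of 13). They differed by -0.47 for endothelial genes (highest in 0 of 15), by -0.45 for stellate cell genes (1 of 12) and by -1.11 for hepatocyte genes (0 of 13). Dendritic cell genes differed by only 0.015 (5 of 11) and mast cell and basophil genes by 0.016 (2 of 8). Platelet genes differed by 0.23 (4 of 6), erythroid genes by -0.085 (1 of 5) and cholangiocyte genes by -0.13 (1 of 5). The part of these cells in the members' values was not tested. The lists of the T and NK cell programme were also high there, with 11 of 14 receptor signalling genes, 17 of 21 surface proteins, 15 of 18 NK receptors and adaptors, 11 of 19 granule and effector genes and 9 of 14 transcription factors above both other vehicle arrays, compared with 38.4% of all genes. Chosen after their values were seen, Ccl3 was at 10.31 against 7.70 and 7.28, and Ifng, the gene of interferon gamma, at 7.03 against 4.83 and 4.64.

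**Figure D3:**
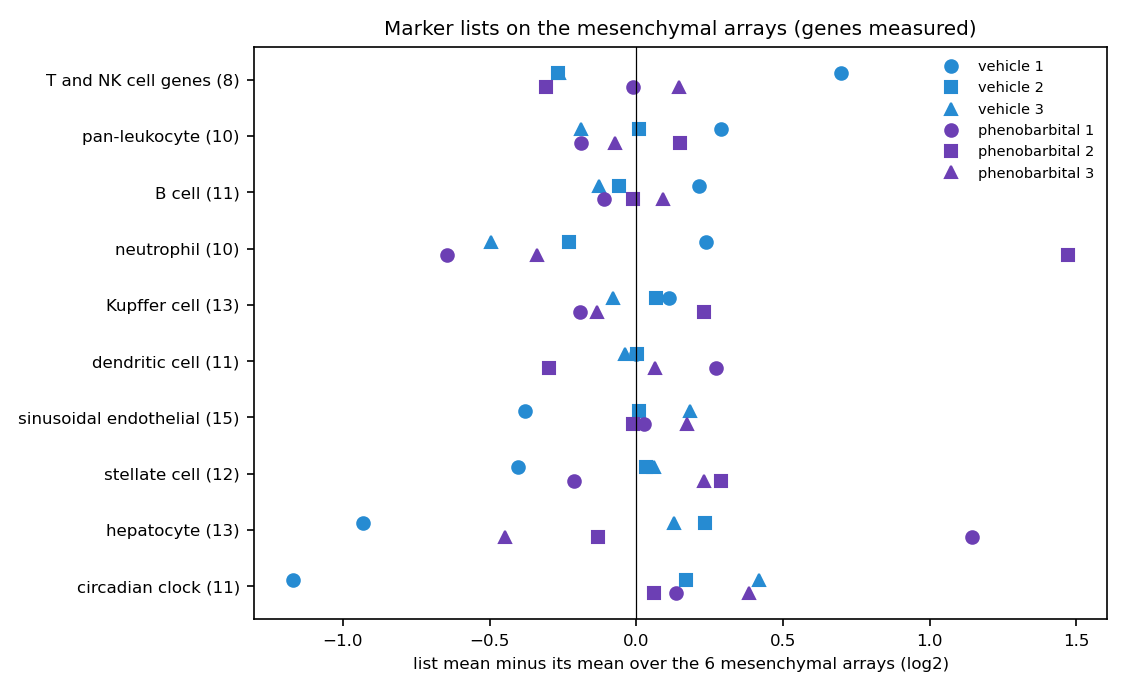
Mean log2 expression of each marker list (number of genes measured in parentheses) in the 6 mesenchymal arrays, shown as the distance from the list's mean over these arrays, with vehicle arrays in blue and phenobarbital arrays in purple. Vehicle array 1 is farthest right for the members (list mean 9.05) and farthest left for hepatocyte genes (9.30), and phenobarbital array 2 is farthest right for neutrophil genes (8.12).

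The members also differed in how closely they followed each other. Over the 6 mesenchymal arrays, with each gene centred on its own mean, the root mean square difference on the log2 scale was smallest between Cd3d and Cd3g, at 0.0999. It was largest between Klrk1 and Nkg7, at 0.634, although both mark NK cells. Among these arrays Klrk1 was highest in phenobarbital array 2 and lowest in vehicle array 3. Cd3d, Cd3e and Cd3g were highest in vehicle array 1 and lowest in phenobarbital array 2. The root mean square differences do not measure this order, and they are descriptions of 6 arrays that share vehicle array 1. Over all 12 arrays and 9023 genes, those most like Cd3g outside the members were the chemokine receptor genes Cxcr4 (root mean square difference 0.231) and Ccr2 (0.257) and Glipr1 (0.287). Those most like Klrk1 were Ncapg2 (0.261), a condensin subunit gene, the B cell receptor modulator gene Cd72 (0.267) and Vopp1 (0.271). The distance over 12 arrays includes the step between the populations. In vehicle mice this step was 3.53 for Cxcr4 and 3.56 for Cd3g, and 3.89 for Ncapg2 and 4.17 for Klrk1. Likeness here therefore need not mean likeness among the mesenchymal arrays.

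Phenobarbital did not move any member past the threshold in mesenchymal cells. By limma 0 of 8003 genes tested were called (0% of genes, with 232 at an unadjusted p under 0.05), and none of these 232 was a member. The fit of all 22626 probe sets called 0 as well, with 770 at an unadjusted p under 0.05. The phenobarbital minus vehicle difference was -0.27 for Cd3d (95% interval -1.01 to 0.47), -0.32 for Cd3g (-1.21 to 0.58) and -0.17 for Cd3e (-0.48 to 0.15). For the other genes it was -0.092 for Cd2 (-0.65 to 0.47), 0.19 for Klrk1 (-0.46 to 0.85), -0.23 for Nkg7 (-1.21 to 0.75), 0.046 for Gzma (-0.97 to 1.07) and -0.072 for Gzmb (-1.04 to 0.90). The adjusted p was 0.998 for each, and the groups overlapped for all 8, in a comparison in which 8.4% of probe sets did not overlap. The intervals reach beyond a 2-fold decrease (-1 on the log2 scale) for Cd3d, Cd3g, Nkg7 and Gzmb and beyond a 2-fold increase for Gzma, so a change of that size lies within the error of these arrays.

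Without vehicle array 1 the differences shifted upward. They became 0.046 for Cd3d, 0.055 for Cd3g, -0.053 for Cd3e, 0.12 for Cd2, 0.39 for Klrk1, 0.16 for Nkg7, 0.53 for Gzma and 0.42 for Gzmb. The number of members above 0 went from 2 of 8 to 7 of 8, and their median from -0.13 to 0.14. An upward shift was set in advance, because vehicle array 1 was the highest vehicle array for 8 of 8 members. Without vehicle array 2 instead, 1 of 8 members was above 0 (median -0.31), and without vehicle array 3, 0 of 8 (median -0.29). For Gzmb the interval without vehicle array 1 was 0.028 to 0.80 (adjusted p = 0.987 by limma), and none of the 8 was called.

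**Figure D4:**
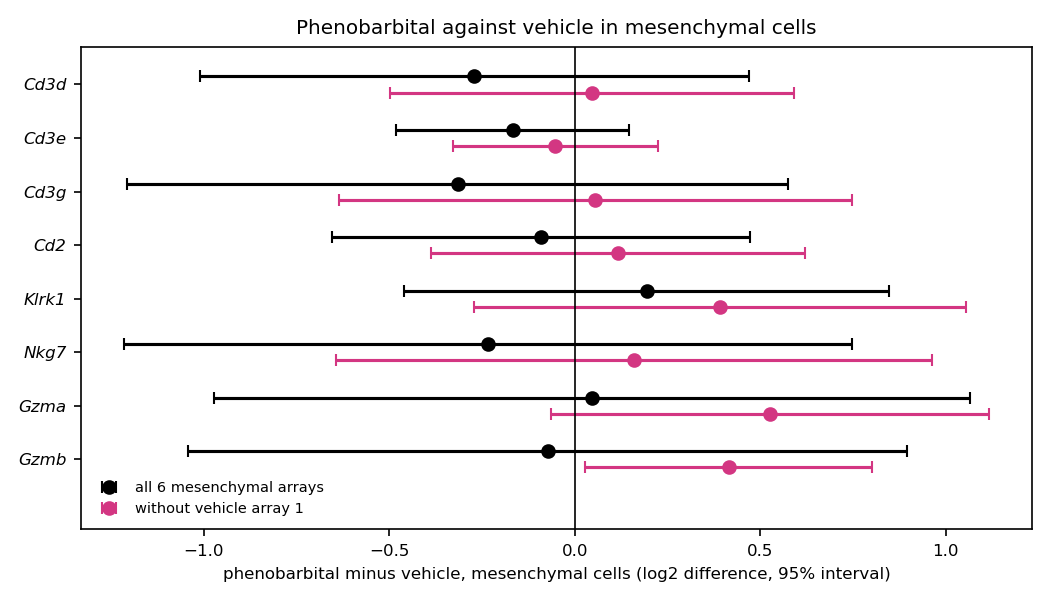
Phenobarbital minus vehicle difference of each member in mesenchymal cells on the log2 scale with 95% intervals, from all 6 arrays (black) and without vehicle array 1 (pink). The black points run from -0.32 to 0.19 with intervals that all include 0, and the pink points run from -0.053 to 0.53.

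In hepatocytes 4 of 8117 genes tested were called for phenobarbital (0.0493%), and none was a member. Cd3e was the 1 member tested there, at -0.20 (SE 0.10, adjusted p = 0.635). In the fit of all probe sets, where 0.0398% were called, 0 of 8 members were called by limma, with adjusted p from 0.691 to 0.995 and 0 members at an unadjusted p under 0.05. Cd3e was lower in each phenobarbital array than in each vehicle array and Nkg7 higher, by 0.33 (95% interval -0.037 to 0.70), whereas the groups of the other 6 overlapped. Thus 2 of 8 members did not overlap, compared with 13.7% of all probe sets. The hepatocyte values of Nkg7 lay below the 40th percentile.

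The effects of phenobarbital in the populations were compared by an interaction term. By limma 0 of 9031 genes were called (0%, with 492 at an unadjusted p under 0.05), and the members had adjusted p from 0.945 to 0.991. The difference of the effects, hepatocytes minus mesenchymal cells, was widest for Nkg7 at 0.56 (95% interval -0.48 to 1.60) and Cd3g at 0.50 (-0.50 to 1.49). Without the vehicle samples numbered 1 of both populations, the members above 0 went from 6 of 8 to 2 of 8 and their median from 0.19 to -0.15. Without vehicle mesenchymal array 2 alone they were 7 of 8 (median 0.38), and without vehicle mesenchymal array 3 alone 8 of 8 (median 0.41).

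Among the pathway genes tested for an effect of phenobarbital by limma, 0 of 27 were called in hepatocytes and 0 of 42 in mesenchymal cells, with 3 in each at an unadjusted p under 0.05, compared with 8.38% of all genes tested in hepatocytes and 2.9% in mesenchymal cells. The widest difference among the tested genes of each list is given next, 1 gene per list, with adjusted p by limma in parentheses. In hepatocytes these genes were Lcp2 at -0.50 (0.501), S1pr1, a receptor for lymphocyte exit, at -0.39 (0.61) and Hcst, the adaptor of NKG2D, at -0.21 (0.751). Ctsw at 0.38 (0.635) and Nfil3 at -1.09 (0.543) were those of the last lists. Without vehicle hepatocyte array 1 these were -0.64, -0.19, -0.35, 0.28 and -0.57. In mesenchymal cells the widest of each list were Ptpn22, a phosphatase that restrains receptor signalling, at -0.36, and Il7r at -0.55. Klrd1, the partner of NKG2 receptors, was at -0.31, Ccl3 at -1.15 and Id2 at -0.32. By limma each of these genes had an adjusted p of 0.998. Without vehicle mesenchymal array 1 these became -0.22, -0.27, 0.081, -0.21 and -0.041, and the sign of Klrd1 turned. Of the genes tested, 2 of 10, 0 of 11, 1 of 8, 1 of 9 and 0 of 4 in the 5 lists were above 0. Without vehicle array 1 the corresponding counts were 4 of 10, 5 of 9, 6 of 8, 3 of 8 and 2 of 4.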

How the data were processed

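The authors deposited 1 table of log2 expression values for 22626 probe sets on 12 Affymetrix 3′ arrays. Per the submitters' processing notes these are RMA values, a method that corrects background, gives all arrays 1 distribution of probe values and summarises them per probe set. No RMA version is given there. A difference is therefore relative to the other probe sets of the array. Signal over background and the 3 arrays of each group, not read depth, limit the precision.

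The platform annotation named the probe sets: 20380 had 1 symbol, 691 several and 1555 none. The members' 8 probe sets matched 8 RefSeq genes of the same symbol. A gene with several probe sets (12393 genes in all) was represented by the one of highest mean. The labels gave the groups and replicate numbers. Tests used limma 3.58.1 in R 4.3.3 (lmFit, eBayes with an intensity trend) and Benjamini-Hochberg adjustment, with an adjusted p under 0.05 called. A gene was tested if it exceeded the array's 40th percentile in at least 3 arrays of the fit. The members were also fitted among all 22626 probe sets without a filter. The fits were tested on simulated data. Phenobarbital was compared with vehicle on the 6 arrays of each population, and the other comparisons used all 12 arrays.

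In each pathway list, up to 3 members that passed with the widest difference between populations in vehicle mice were named, and in each phenobarbital comparison the tested member with the widest difference. The 3 genes most like Cd3g and the 3 most like Klrk1, which were the CD3 chain and the cytotoxic or NK gene with the highest vehicle mesenchymal mean, were named too, and so was Cyp2b10. Genes given as lower, those said to be chosen later and the motifs were chosen after their values or sequences were seen. The members and lists were chosen with earlier results of these data known. NKG2D ligands (0 of 9 measured) and Lck were not analysed here.

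Deviations from the group means were correlated over the 12393 genes. Between vehicle hepatocyte and vehicle mesenchymal arrays of the same number, r was 0.197, 0.175 and 0.149. Whether these numbers pair the vehicle samples is not stated by the labels and was not established. For phenobarbital arrays r was 0.0631, -0.0316 and 0.00954, so those numbers were not taken to pair samples. The fits had no replicate block, which was tried as an alternative. Other alternatives changed the filter, the probe set rule, the scaling, the trend, the arrays in the fit and left out arrays.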

Additional observations from a re-analysis of the deposited data

How the results depend on the processing

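The 7 members other than Cd3e stayed higher in mesenchymal cells and past the threshold under each alternative that tested them. Only the 6-array fits of 1 treatment, in which Cd2 was not tested, gave 6. Cd3e changed sign with arrays centred on their medians (-0.089 in vehicle and -0.068 in phenobarbital mice) and without the vehicle samples numbered 1 (-0.019). Median centring moved the median difference of all genes from 0.020 to -0.20 in vehicle mice. Counts of called genes between populations were 7470 and 7503, or 17136 and 17598 with all probe sets tested. In hepatocytes the count for phenobarbital was 4, 9 with all probe sets and 1 in the fit of all 12 arrays, and ran from 1 to 5 with 1 array left out. In mesenchymal cells the count for phenobarbital was 0 in every setting run. The difference of the effects gave 0, and 0 to 1 with 1 array left out. The replicate block changed no member's call and left 7445 and 7498 genes called between populations. It left 4 for phenobarbital in hepatocytes, and 0 in mesenchymal cells and for the difference of the effects. The block joined arrays by number, also the phenobarbital arrays and, within a population, vehicle with phenobarbital arrays. It therefore cannot show what pairing of the vehicle samples alone would change. With 1 array left out, the phenobarbital difference in mesenchymal cells ran from -0.47 to 0.046 for Cd3d, -0.56 to 0.055 for Cd3g, -0.48 to 0.16 for Nkg7, -0.064 to 0.39 for Klrk1, -0.36 to 0.53 for Gzma, -0.37 to 0.42 for Gzmb and -0.22 to 0.12 for Cd2. The difference of the effects ran from -0.15 to 0.048 for Cd3e, -0.23 to 0.31 for Klrk1, -0.53 to 0.36 for Gzma, -0.27 to 0.52 for Gzmb and -0.046 to 0.29 for Cd2. Without the vehicle samples numbered 1 its sign turned for Cd3d (-0.13), Klrk1 (-0.053), Gzmb (-0.39) and Cd2 (-0.16). Members whose sign stayed the same are not listed, whatever the size of their change. In the phenobarbital comparisons, leaving out these samples equals leaving out vehicle array 1. The cause of these changes was not tested. With 3 arrays a group, and hepatocyte values low on the array, small differences of these genes were not detectable.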
